A study of Mus musculus with 3 samples.

Results

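The cells described here are spleen cells of mouse chosen as nonclassical patrolling monocytes, 304 of 49499 kept cell barcodes in 3 single-cell RNA libraries. A kept barcode had at least 300 genes, at least 500 unique molecular identifiers (UMIs, each counted as 1 captured RNA molecule) and at most 10% mitochondrial UMIs. A barcode entered the gate when it held Csf1r, at most 1 UMI of Ly6c2 and at least 2 of the 5 genes Ace, Treml4, Ear2, Spn and Cx3cr1 (called the rule genes below). It also had to lack Cd79a (B cells), Cd3e (T cells), C1qa and Spic (red pulp macrophages) and to hold under 3 UMIs of Ltf (neutrophils). The cells were thus chosen by measured values of these genes, so levels of the rule genes and shares of gated cells are given as descriptions with no test.

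The libraries carry the labels Chow, MASH and MASH-Phe-free, with 1 library per group, and all were made from spleen with a 5′ droplet kit that reads polyA RNA. MASH stands for metabolic dysfunction-associated steatohepatitis, an inflamed fatty liver. The series title names phenylalanine, but the labels of the spleen libraries give no diet composition. The series text describes C3H mice fed a high-fat diet and then a high-fat diet deficient in methionine and choline, beside controls. All bore subcutaneous tumours of the HCA-1 liver cancer line, and that text is for bulk RNA of those tumours. It gives 60% of calories as fat, 8 weeks of high-fat feeding and 4 weeks for the tumours. Nothing read here says whether the spleens came from such mice, how old they were or how many animals each library pools. With 1 library per group no comparison between groups has a replicate check and none is given a p-value. The intervals below are 95% intervals for counting error only.

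Nonclassical monocytes are blood monocytes with little Ly6C that crawl along the inner wall of vessels and take up particles and debris from it. In mice they arise largely from classical Ly6C-high monocytes, and they depend on the nuclear receptor Nr4a1 and on Cebpb. Ace (the angiotensin-converting enzyme), the receptor-like gene Treml4, Ear2 (an eosinophil-associated ribonuclease), Spn (CD43) and the chemokine receptor Cx3cr1 are genes by which they are told from classical monocytes. Spleen holds them beside classical monocytes, dendritic cells and macrophages that share some of these genes.

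The gate took 99 barcodes from Chow, 71 from MASH and 134 from MASH-Phe-free. Their median depth was 7541, 8403 and 7870 UMIs, against 7349, 6418 and 6670 for all kept barcodes. All 5 rule genes were detected in 35, 25 and 62 barcodes, and exactly 4 in 21, 4 and 24. The other 43, 42 and 48 barcodes had 2 or 3 rule genes. These had median depths of 4278, 9636.5 and 15153 UMIs, and those with 4 or 5 rule genes 7723, 8132 and 7227 UMIs. The part of depth in the marker counts and levels below was not tested. The commonest sets were all 5 genes (122 barcodes), all but Cx3cr1 (35), Treml4 with Ear2 alone (27) and Spn with Cx3cr1 alone (22).

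**Figure D1:**
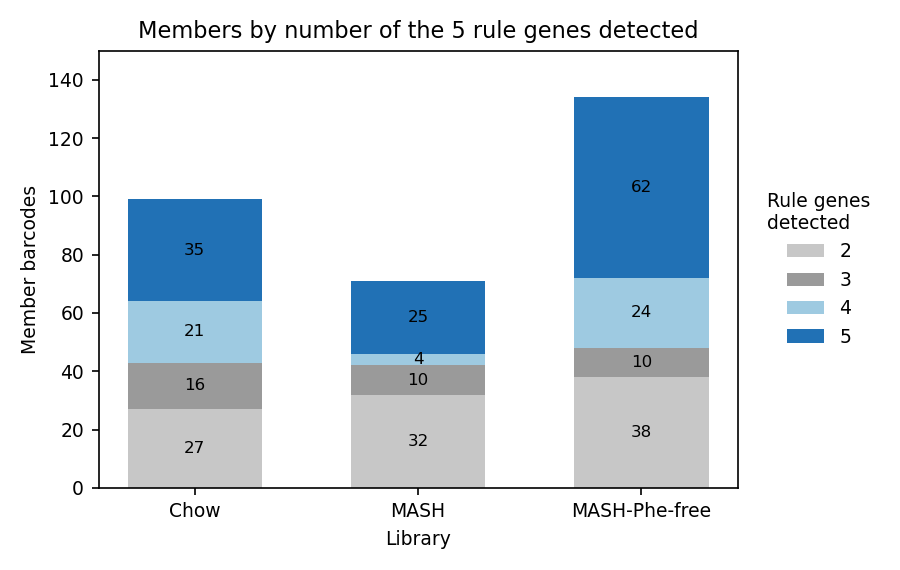
Gated barcodes per library (y axis, number of barcodes) stacked by how many of the 5 rule genes were detected. Of 71 barcodes in MASH 29 had 4 or 5 rule genes, against 56 of 99 in Chow and 86 of 134 in MASH-Phe-free.

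By markers outside the rule the label fitted the 171 barcodes with 4 or 5 rule genes better than the 133 with 2 or 3. Every one of the 171 expressed at least 3 of the 7 nonclassical markers that the rule did not use, namely Fcgr4 (an activating Fc receptor), Adgre4, Nr4a1, Cebpb, Pou2f2, Itgal and Eno3. Among the 133, 78 (58.6%) did so, and 79 (59.4%) carried at least 3 markers of type 2 dendritic cells, against 3 (1.75%) of the 171. By library, at least 3 type 2 markers were carried by 18 of 43 (41.9%) of the former in Chow, 27 of 42 (64.3%) in MASH and 34 of 48 (70.8%) in MASH-Phe-free. Markers of type 1 dendritic cells reached that number in 50 (37.6%) of the 133 and 10 of the 171, and progenitor markers in 7 and 0. Other lists separated the 133 and the 171 less: plasmacytoid dendritic markers reached it in 41 (30.8%) and 29 barcodes, and neutrophil markers in 19 (14.3%) and 18. For neutrophil markers the order was turned in MASH-Phe-free, with 3 of 48 (6.25%) against 15 of 86. The 133 are a mixed set whose make-up differed between libraries. They are therefore called barcodes with 2 or 3 rule genes rather than monocytes, though some of them may be monocytes. Dividing the gate at 4 rule genes was chosen after seeing the data. How many classical monocytes hold at least 3 of the 7 nonclassical markers was not counted. Itgal and Pou2f2, which are among the 7, were also read in classical barcodes (values below), so that count alone does not tell the 171 from classical monocytes.

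Fcgr4 stood at 1303, 1366 and 1102 CPM (UMIs of a gene per 1000000 UMIs of the set) in the barcodes with 4 or 5 rule genes of Chow, MASH and MASH-Phe-free, and at 174, 121 and 79.6 CPM in those with 2 or 3. Nr4a1, the regulator named above, read 650, 554 and 593 CPM against 101, 60.6 and 34.8. Cd209a, a lectin of type 2 dendritic cells, was at 0 in all 171 barcodes and read 211, 557 and 590 CPM in the others. The same division held for Clec9a, a receptor of type 1 dendritic cells, which was at 0 in the 171 and read 71.1, 191 and 74.6 CPM in the others.

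**Figure D2:**
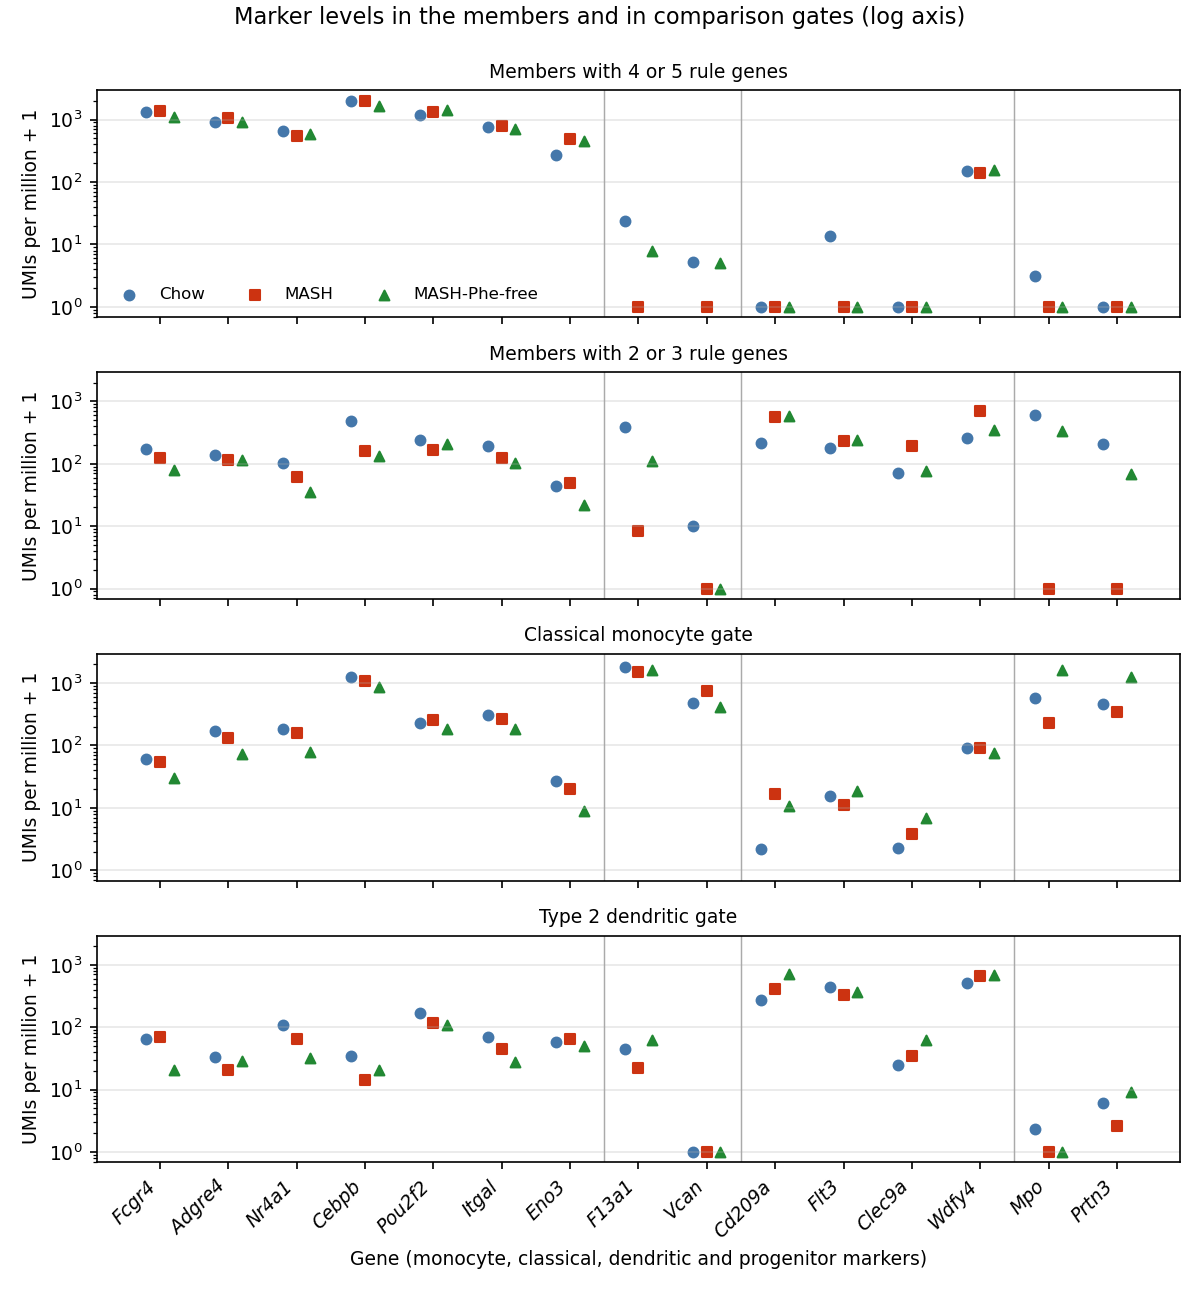
Level of 15 marker genes (x axis) as CPM plus 1 on a log axis in 4 sets of barcodes (panels) and 3 libraries (symbols). Fcgr4 lies at 1102 to 1366 CPM in the barcodes with 4 or 5 rule genes, where Cd209a and Clec9a are at 0, whereas the barcodes with 2 or 3 rule genes hold both kinds of marker.

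Markers of other cell types were also read in the 171 barcodes. Of these, 29 (17.0%) carried at least 3 markers of plasmacytoid dendritic cells and 18 (10.5%) at least 3 of neutrophils. The neutrophil markers reached that number in 2 of 56 barcodes in Chow, 1 of 29 in MASH and 15 of 86 (17.4%) in MASH-Phe-free. Summed over the list, red pulp macrophage markers read 98.2, 51.8 and 107 CPM in Chow, MASH and MASH-Phe-free, with C1qa and Spic at 0 by the rule and Vcam1 and Slc40a1 at 0 in MASH. Natural killer markers read 4.18, 418 and 88.0 CPM, and erythroid markers 41.8, 812 and 2158 CPM. Single barcodes carried much of this. For Hbb-bs 1 barcode held 99 of 119 UMIs in MASH and 1 held 910 of 981 in MASH-Phe-free. All 31 Gzma UMIs in MASH came from 1 barcode. Neutrophil markers read 161, 135 and 1046 CPM, and 4349, 5536 and 581 CPM in the barcodes with 2 or 3 rule genes. Of the MASH-Phe-free UMIs with 4 or 5 rule genes, 362 of 394 for S100a9 and 142 of 169 for S100a8 came from 1 barcode each. The doublet caller Scrublet called 337, 321 and 285 of all kept barcodes (2.11%, 1.82% and 1.80%) and 2 of the 304, both in MASH-Phe-free and both with 4 or 5 rule genes. These stayed in, and values without them are given where they matter. The libraries shared 72, 77 and 102 barcode sequences pairwise, none of them a gated barcode of either library.

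Barcodes near the limits of the rule were numerous. With 2 rule genes 27, 32 and 38 barcodes lay just inside it, and 130, 138 and 157 with 1 rule gene lay just outside. At 1 UMI of Ly6c2 there were 17, 6 and 22 gated barcodes, and 11, 6 and 13 otherwise eligible ones had 2. The positive part of the rule (Csf1r with at least 2 rule genes and low Ly6c2) was met by 453, 523 and 645 barcodes, of which 354, 452 and 511 were removed by a negative gene, C1qa in 300, 411 and 454 of them.

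The limit on Ly6c2 left out further barcodes with 4 or 5 rule genes. They are described below by levels summed per class, which cannot tell cells of intermediate state from a changing mix of cells. Without that limit 220, 145 and 196 barcodes in Chow, MASH and MASH-Phe-free held 4 or 5 rule genes. Ly6c2 is the classical monocyte antigen, and with rising Ly6c2 UMIs (0 to 1, 2 to 5, 6 to 20, and 21 or more) Fcgr4 in Chow read 1303, 944, 270 and 73.2 CPM. It read 1366, 577, 416 and 103 CPM in MASH and 1102, 981, 459 and 72.1 CPM in MASH-Phe-free, so the order was the same in all 3 libraries. Nr4a1 differed less, with 650, 607, 532 and 304 CPM in Chow.

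F13a1, coagulation factor XIII and a classical monocyte gene, was highest in the class with most Ly6c2 in every library but did not rise steadily. It stood at 23, 3.41, 235 and 801 CPM over the 4 Ly6c2 classes of Chow. It read 0, 129, 79.6 and 641 CPM in MASH, where the 2 middle classes held 13 and 22 barcodes, and 6.88, 0, 169 and 824 CPM in MASH-Phe-free. H2-Aa, the alpha chain of an MHC class II molecule, was highest in the class with 6 to 20 Ly6c2 UMIs in every library. It read 3181, 3885, 5959 and 3304 CPM in Chow, 1278, 4086, 5464 and 2272 CPM in MASH and 2226, 3670, 4863 and 2691 CPM in MASH-Phe-free. Depth differed between the classes, with medians of 7723, 10671, 13776 and 16695 UMIs in Chow, 8132, 7477, 12166 and 18515 UMIs in MASH and 7227, 9916, 14532 and 16912 UMIs in MASH-Phe-free, and its part in these levels was not tested.

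**Figure D3:**
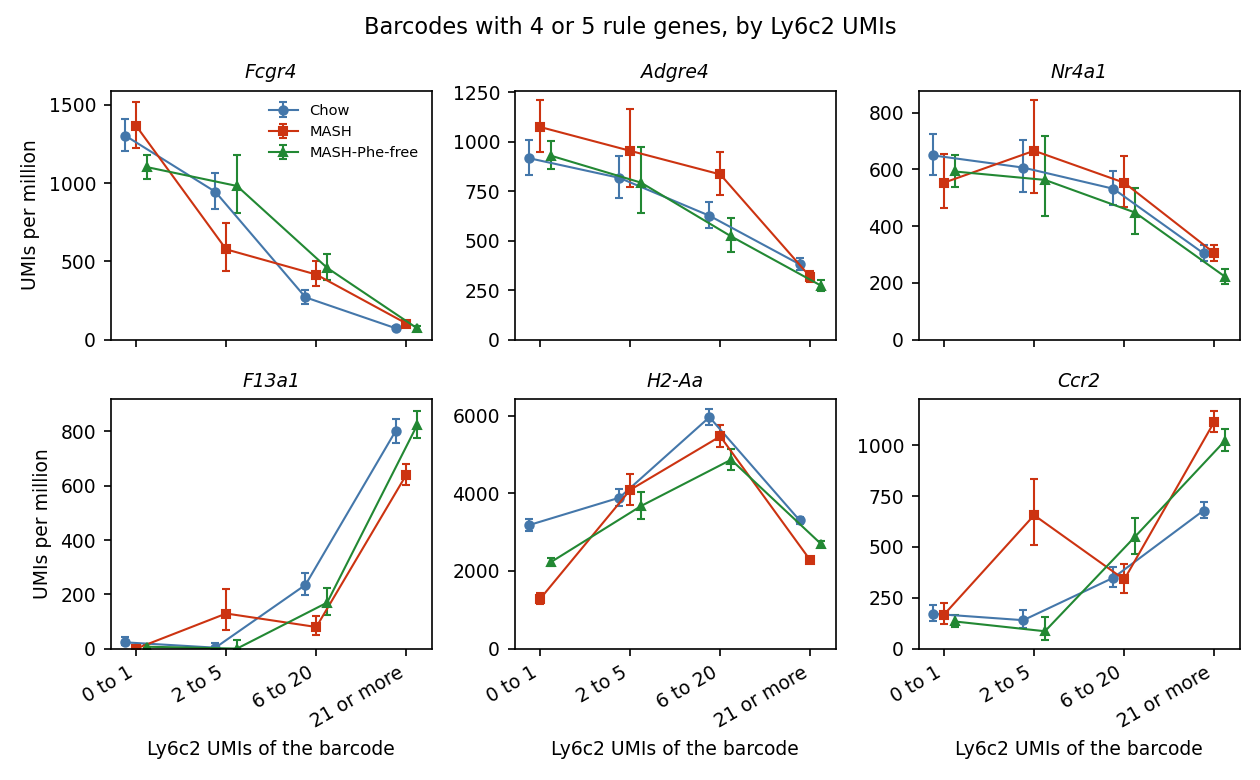
CPM (y axis) of 6 genes in barcodes with 4 or 5 rule genes, divided by Ly6c2 UMIs (x axis), for 3 libraries; bars are 95% Poisson intervals. Fcgr4 in Chow goes from 1303 to 73.2 CPM from the lowest to the highest class, and F13a1 from 23 to 801 CPM.

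Gated barcodes were then compared with classical monocytes of the same libraries, taken as barcodes with Csf1r, at least 3 Ly6c2 and at least 1 Ccr2 UMI and the same negative genes (360, 369 and 713 barcodes). UMIs were summed per gate and library and tested with edgeR's quasi-likelihood test with the library as a block, so the spread is that between 3 libraries of different groups. The 13 genes of either gate were left out. Since those genes separated the cells, genes that go with them were bound to differ, and the counts describe how the gates differ rather than test whether they do.

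Of 11611 genes tested, 931 (8.02%) were higher and 609 (5.25%) lower in the gated barcodes (edgeR, adjusted p under 0.05 and log2 fold of at least 1 in size). Of 24 genes in a nonclassical list 16 were higher and none lower, with a median log2 fold of 1.86 against 0.00 for all genes. The list was chosen with earlier results of these data known. Fcgr4 read 765, 514 and 565 CPM against 59.6, 53.5 and 28.6 CPM in classical monocytes (log2 fold 3.64, SE 0.19, edgeR adjusted p = 8.8e-06). Cd300e, an activating receptor of monocytes, read 273, 262 and 259 CPM against 15.8, 12.8 and 5.50 CPM (log2 fold 4.56, SE 0.25). Neither gene's values overlapped between the gates, but both were picked from the list, and the share of all genes without overlap is not given.

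Of 18 classical monocyte genes 15 were lower and 1 higher. Vcan, the matrix proteoglycan versican, read 6.56, 0 and 2.0 CPM in the gated barcodes against 482, 734 and 412 CPM (log2 fold -7.62, SE 0.34, edgeR adjusted p = 4.7e-06). Chil3, a chitinase-like protein, read 26.2, 1.26 and 7.18 CPM against 1010, 347 and 277 CPM (log2 fold -5.66, SE 0.24). All 3 libraries showed the same order for both genes, which the rule for named genes required.

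The genes furthest above classical monocytes were largely those of the barcodes with 2 or 3 rule genes. H2-M2, a nonclassical MHC class I gene, read 420, 224 and 388 CPM in all gated barcodes (log2 fold 10.68, SE 0.27, edgeR adjusted p = 5.9e-07) but 8.36, 0 and 0 CPM in those with 4 or 5 rule genes. In the type 2 dendritic gate H2-M2 stood at 1284, 1907 and 610 CPM. Cd4, which spleen type 2 dendritic cells carry, read 57.9, 122 and 71.2 CPM in all gated barcodes and at most 5.50 CPM in the 171. Retnla had the largest fold of all (12.57), and 553 of its 553 UMIs in Chow came from 1 barcode.

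For that reason the 171 barcodes with 4 or 5 rule genes were set against the 406 classical barcodes with at most 1 rule gene, a comparison added after seeing the data and given without p-values of single genes. By the same edgeR thresholds 911 of 9170 genes (9.93%) were higher and 929 (10.1%) lower. The nonclassical list had 22 of 24 genes higher and a median log2 fold of 4.43, against -0.01 for all genes, and the classical list had 15 of 18 lower (median -2.83). The 406 classical barcodes held more of some progenitor genes than all classical barcodes. Elane read 1278, 162 and 1631 CPM in them against 387, 85.45 and 865 CPM in all. Ctsg read 427, 42.0 and 679 CPM against 147, 55.9 and 427 CPM, and so was lower in MASH. All 7 progenitor markers tested were lower in the 171, and the part of progenitor-like barcodes in this comparison was not tested.

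Fabp4, a fatty-acid-binding protein, read 409, 550 and 457 CPM in the 171 barcodes of Chow, MASH and MASH-Phe-free and 0, 0.472 and 0 CPM in the classical ones. Cd300e read 453, 573 and 509 CPM against 0, 1.42 and 0.646 CPM. Lilra5, a leukocyte immunoglobulin-like receptor, read 516, 522 and 455 CPM against 3.51, 0.943 and 0.215 CPM. Vegfc, the lymphatic growth factor, was lower in level but as separate, at 142, 147 and 116 CPM against 0, 0 and 0.215 CPM. Slc12a2, a sodium-potassium-chloride transporter, read 483, 378 and 411 CPM against 2.11, 0 and 0.861 CPM. These genes are among those chosen for the largest fold and the same order in all 3 libraries. Their separation follows from that choice and from the cut of both sets on rule genes.

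**Figure D4:**
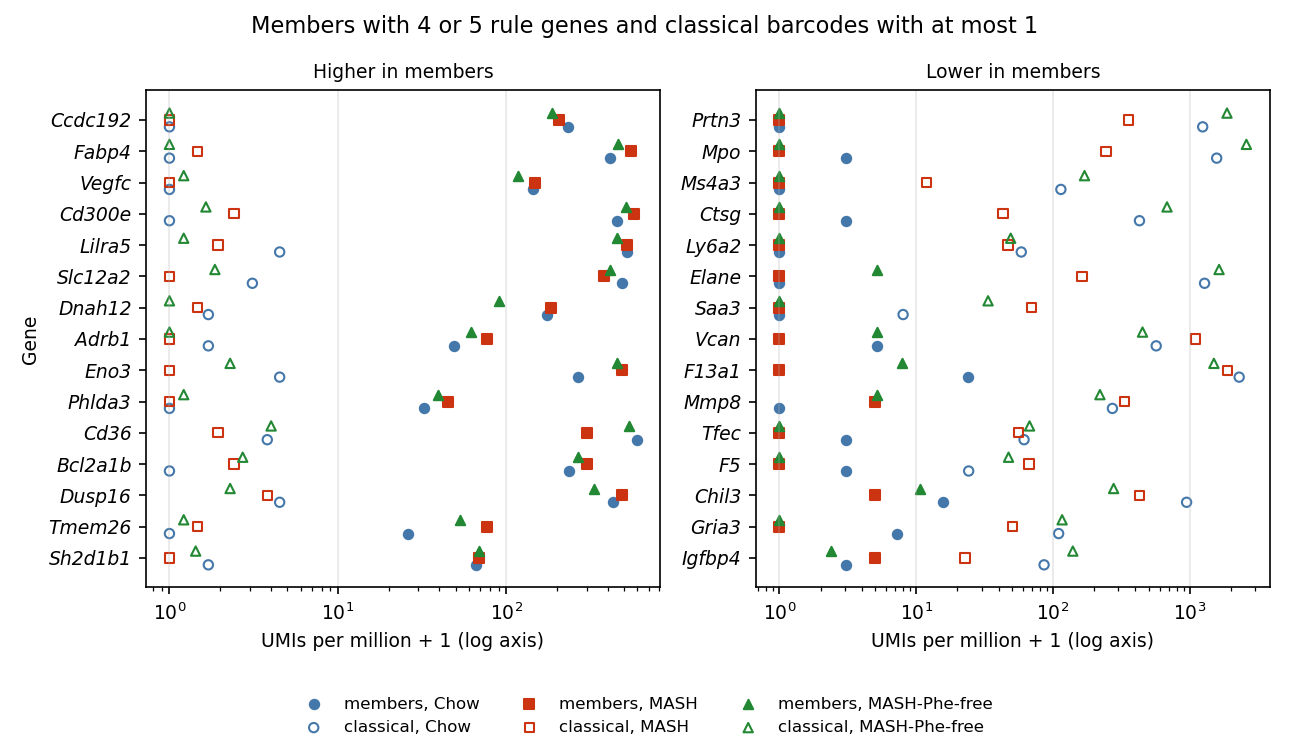
CPM plus 1 (x axis, log) of the 15 genes furthest higher and 15 furthest lower in barcodes with 4 or 5 rule genes (filled) against classical barcodes with at most 1 (open), 3 libraries each. Cd300e lies at 453 to 573 CPM in the former and at 0 to 1.42 CPM in the latter; Mpo, Elane and Prtn3 lie at 0 to 4.13 CPM in the former.

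Among regulators of transcription 11 of 26 genes were higher and 3 lower in this narrower comparison, beside 9.93% and 10.1% of all genes. The count of lower genes thus lay near the share over all genes. Nr4a1 read 650, 554 and 593 CPM against 65.3, 76.0 and 47.6 CPM, and Pou2f2 read 1186, 1322 and 1422 CPM against 122, 161 and 140 CPM. Pparg, the nuclear receptor of fatty-acid metabolism, read 357, 538 and 530 CPM against 2.11, 3.30 and 11 CPM. Bcl6, a transcriptional repressor, stood at 228, 307 and 179 CPM against 34.4, 55.7 and 31.6 CPM. Cebpa, a driver of early myeloid development, was among the 3 lower genes, at 64.8, 35.8 and 45.4 CPM against 129, 71.2 and 85.2 CPM.

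Genes of adhesion and migration were higher for 11 of 22 and lower for 3, the latter near the 10.1% of all genes. Itgax (CD11c) read 238, 207 and 270 CPM against 0, 3.30 and 1.94 CPM. S1pr5, a sphingosine phosphate receptor that guides cells out of tissue, read 292, 235 and 277 CPM against 6.32, 5.66 and 3.01 CPM, and Pecam1 (CD31) read 447, 462 and 409 CPM against 32.3, 17.0 and 25.2 CPM. Itgal, the integrin chain with which patrolling monocytes hold on to the vessel wall, read 754, 800 and 695 CPM against 154, 169 and 138 CPM. Ccr1, a receptor for inflammatory chemokines, was on the lower side, at 0, 0 and 6.88 CPM against 70.9, 103 and 60.7 CPM.

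Fc receptor and uptake genes were higher for 6 of 20 and lower for 2, the latter near the 10.1% of all genes. Cd36, a scavenger receptor for lipids, read 591, 299 and 531 CPM in the 171 barcodes against 2.81, 0.943 and 3.01 CPM, and Msr1, another scavenger receptor, was lower at 48.0, 43.8 and 28.9 CPM against 183, 248 and 165 CPM. Among lipid genes 11 of 40 were higher, with Pparg, Fabp4, Cd36 and the cholesterol exporter Abca1 among them, and 8 were lower, with Lgals3 at 564, 466 and 623 CPM against 2121, 2486 and 1869 CPM. Survival genes were higher for 6 of 19. Bcl2, which blocks apoptosis, read 209, 398 and 304 CPM against 22.5, 2.36 and 15.1 CPM, and the related Bcl2a1b read 234, 299 and 264 CPM against 0, 1.42 and 1.72 CPM.

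Cell-cycle genes were lower for 22 of 29, against classical barcodes that held the progenitor genes named above. Top2a, needed to untangle replicated DNA, read 2.09, 23.9 and 49.5 CPM in the 171 barcodes against 213, 159 and 192 CPM. Mki67 read 0, 7.96 and 142 CPM against 217, 180 and 212 CPM, and 102 of its 103 UMIs in MASH-Phe-free came from 1 barcode. The single higher gene was Cdkn1b, an inhibitor of cell-cycle kinases, at 274, 311 and 216 CPM against 96.9, 85.4 and 76.2 CPM. Iron genes were higher for 7 of 17 and lower for none, with Hfe, the haemochromatosis gene, at 217, 331 and 271 CPM against 16.9, 21.2 and 26.5 CPM. MHC class II genes were higher for 6 of 14. Type I interferon response genes were lower for 14 of 46 and higher for 3. In the same comparison 9.93% of all genes tested were higher and 10.1% lower, the shares to set beside the counts of each list. The 3 higher interferon genes did not exceed that share.

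Gated barcodes made up 0.619% of kept barcodes in Chow (99 of 15984, exact Clopper-Pearson interval 0.504 to 0.754%), 0.402% in MASH (71 of 17651, 0.314 to 0.507%) and 0.845% in MASH-Phe-free (134 of 15864, 0.708 to 1.0%). MASH was the lowest, at 0.649 times Chow, and MASH-Phe-free was 2.10 times MASH. Barcodes with 4 or 5 rule genes accounted for most of this, at 0.350%, 0.164% and 0.542%, whereas those with 2 or 3 stood at 0.269%, 0.238% and 0.303% with overlapping intervals. MASH stayed the lowest under all 9 settings of the share of kept barcodes, every one of which kept the negative genes of the rule. MASH-Phe-free was the highest in 8 of the 9, the exception being 4 or 5 rule genes with no limit on Ly6c2 (1.38%, 0.822% and 1.24%). Without the negative genes MASH was not the lowest. The positive part of the rule alone took 453 of 15984, 523 of 17651 and 645 of 15864 barcodes, with the lowest share in Chow.

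Classical monocytes made up 2.25%, 2.09% and 4.49% of kept barcodes. Of gated and classical barcodes together, the gated ones were 21.6% in Chow, 16.1% in MASH and 15.8% in MASH-Phe-free, and on that denominator the intervals of MASH (12.8 to 19.9%) and MASH-Phe-free (13.4 to 18.5%) overlapped. Among all barcodes with 4 or 5 rule genes, those with at most 1 Ly6c2 UMI were 25.5% in Chow, 20% in MASH and 43.9% in MASH-Phe-free (interval 36.8 to 51.1%). Those with 21 or more were 43.2%, 55.9% and 38.8%. When every barcode was thinned to 2000 UMIs the gate held 122 of 12907, 66 of 13185 and 132 of 12431 barcodes (0.945%, 0.501% and 1.06%), leaving out 3077, 4466 and 3433 shallower ones. Of those taken after thinning only 55, 31 and 67 were gated at full depth.

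Between libraries a gene was counted past the fold when its log2 ratio, with 10 CPM added to each side, was at least 1 in size and it held at least 20 UMIs over both libraries. MASH over Chow had 143 of 8403 genes higher (1.70%) and 137 lower (1.63%) in the gated barcodes, and 27 and 26 of 11412 (0.237% and 0.228%) in the far more numerous classical monocytes. In the barcodes with 4 or 5 rule genes 94 of 5661 (1.66%) were higher and 145 (2.56%) lower. MASH-Phe-free over MASH had 173 of 9184 genes higher (1.88%) and 105 lower (1.14%), and with 4 or 5 rule genes 259 of 6642 (3.90%) and 101 (1.52%). In classical monocytes those counts were 61 and 19 of 12060 (0.506% and 0.158%). Both comparisons use the MASH library, so levels of the 3 libraries are given side by side.

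The type I interferon response was higher in MASH than in the other libraries. These genes are switched on by interferon alpha and beta, chiefly through a DNA element in their promoters, and code for proteins that hinder viruses. Of 46 measured members of the list 44 were higher in MASH than in Chow and 16 were past the fold, with a median log2 ratio of 0.86 against -0.05 for all genes. All 46 were lower in MASH-Phe-free than in MASH, 16 past the fold, with a median of -0.82. In classical monocytes the medians were 0.71 and -0.64.

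The promoters of 3 list members hold matches to that element in the 250 bases before the RefSeq start site (build GRCm38.p6, printed 5′ to 3′ on the gene's strand, with capitals marking each match, on either strand, to GAAA, any 2 bases and GAAA again). These are examples of promoters with more than 1 match. Of other list members described below, Slfn5 has 1 match in this window and Irf7 has none. Isg15 at chr4:156200819-156201068 on the minus strand has 3 overlapping matches from 78 bases before the start. Ifit1 at chr19:34640639-34640888 on the plus strand has 2, from 104 and 85 bases before it. Oas1g at chr5:120887614-120887863 on the minus strand has 2 overlapping ones, from 18 and 12 bases before it.
Isg15: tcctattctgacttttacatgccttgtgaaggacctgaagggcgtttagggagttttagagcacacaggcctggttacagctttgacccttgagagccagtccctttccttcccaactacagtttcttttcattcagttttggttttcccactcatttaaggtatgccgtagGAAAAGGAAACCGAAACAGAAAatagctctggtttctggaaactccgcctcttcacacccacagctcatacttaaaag
Ifit1: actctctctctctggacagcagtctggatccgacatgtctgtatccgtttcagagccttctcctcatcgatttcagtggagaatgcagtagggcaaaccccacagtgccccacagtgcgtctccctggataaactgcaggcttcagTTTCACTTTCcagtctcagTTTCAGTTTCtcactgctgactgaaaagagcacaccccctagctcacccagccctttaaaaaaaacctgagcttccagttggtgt
Oas1g: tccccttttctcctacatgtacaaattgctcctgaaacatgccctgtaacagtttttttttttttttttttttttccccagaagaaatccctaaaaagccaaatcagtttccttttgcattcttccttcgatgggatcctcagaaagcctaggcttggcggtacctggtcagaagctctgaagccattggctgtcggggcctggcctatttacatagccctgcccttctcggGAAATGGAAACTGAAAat
A match was present in 20 of 34 list genes with a promoter in the table (58.8%, windows of 250 bases before to 50 after the start) and in 1079 of all 27025 genes (3.99%). Of the nonclassical list 2 of 19 genes had one (10.5%). A match is a description of the letters and not of binding.

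Isg15, a ubiquitin-like protein, read 53.6, 230 and 54.2 CPM in the gated barcodes of Chow, MASH and MASH-Phe-free (MASH over Chow ratio 4.30, interval 3.12 to 6.02). It was detected in 16 of 99, 33 of 71 and 33 of 134 barcodes, or 16.2%, 46.5% and 24.6%. In the T-cell gate, of median depth 9206, 9209 and 8492 UMIs, it was in 19.6%, 31.1% and 26.0%. After thinning to 2000 UMIs the shares were 8.89%, 23.9% and 8.4% in the gated barcodes and 6.36%, 11.4% and 10.1% in T cells. MASH was thus the highest in both cell sets.

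Ifit1, which binds foreign RNA, read 12, 74.2 and 17.6 CPM. Oas1g, a sensor of double-stranded RNA, read 12, 61.6 and 12.4 CPM, and Slfn5 read 53.6, 248 and 94.0 CPM. Irf7, the regulator that amplifies the response, read 124, 243 and 104 CPM. In each of these MASH was the highest library, and Ifi27l2a, an interferon-induced protein of mitochondria, had the most UMIs among them. Ifi27l2a read 374, 1207 and 568 CPM (MASH over Chow ratio 3.23, interval 2.85 to 3.66) and was found in 62, 59 and 112 barcodes.

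In barcodes with 4 or 5 rule genes much of the difference lay in 1 barcode. The MASH barcode with the most list UMIs held 536 of them, 15.1% of the list in that library, and read 531 list UMIs per 10000, whereas the highest in Chow was 189. With all 29 barcodes, 37 of 41 measured genes were higher in MASH than in Chow, 12 past the fold, and the median log2 ratio was 0.74. Leaving out the barcode with the most list UMIs in each library brought this to 29 of 36 genes, 4 past the fold, and 0.27. For MASH-Phe-free over MASH the median went from -0.75 to -0.25, and the genes past the fold from 18 to 5.

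The median barcode still differed. It read 99.4, 127 and 105 list UMIs per 10000 in Chow, MASH and MASH-Phe-free, and 22 of 29 MASH barcodes (75.9%) and 48 of 86 in MASH-Phe-free (55.8%) lay above the Chow median. With 2 or 3 rule genes the medians were 61.8, 94.8 and 56.3, and 5 of 42 MASH barcodes exceeded the highest in Chow. Thinned to 2000 UMIs, the median barcode with 4 or 5 rule genes held 20, 25 and 22 list UMIs, a classical monocyte 28, 41 and 32, and a T cell 7, 9 and 8.

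Genes of the list differed in how the excess was spread over the 29 MASH barcodes. Isg15 had 27 UMIs there, 20 of them in 1 barcode, and in barcodes with all 5 rule genes it read 29.3 CPM in Chow and 23.1 CPM in MASH. Ifit1 had 14 UMIs, 12 in 1 barcode. Ifi27l2a was instead found in 27 of the 29, with 37 of 271 UMIs in the highest, and in barcodes with all 5 rule genes it read 507, 1001 and 534 CPM. Rtp4, a transporter-associated interferon target, had 48 UMIs over 14 barcodes, at most 9 in any, and read 52.2, 191 and 64.7 CPM. Ifi203, a DNA-binding interferon-inducible protein, was in 26 of the 29, with 21 of 88 UMIs in the highest, and read 132, 350 and 116 CPM.

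**Figure D5:**
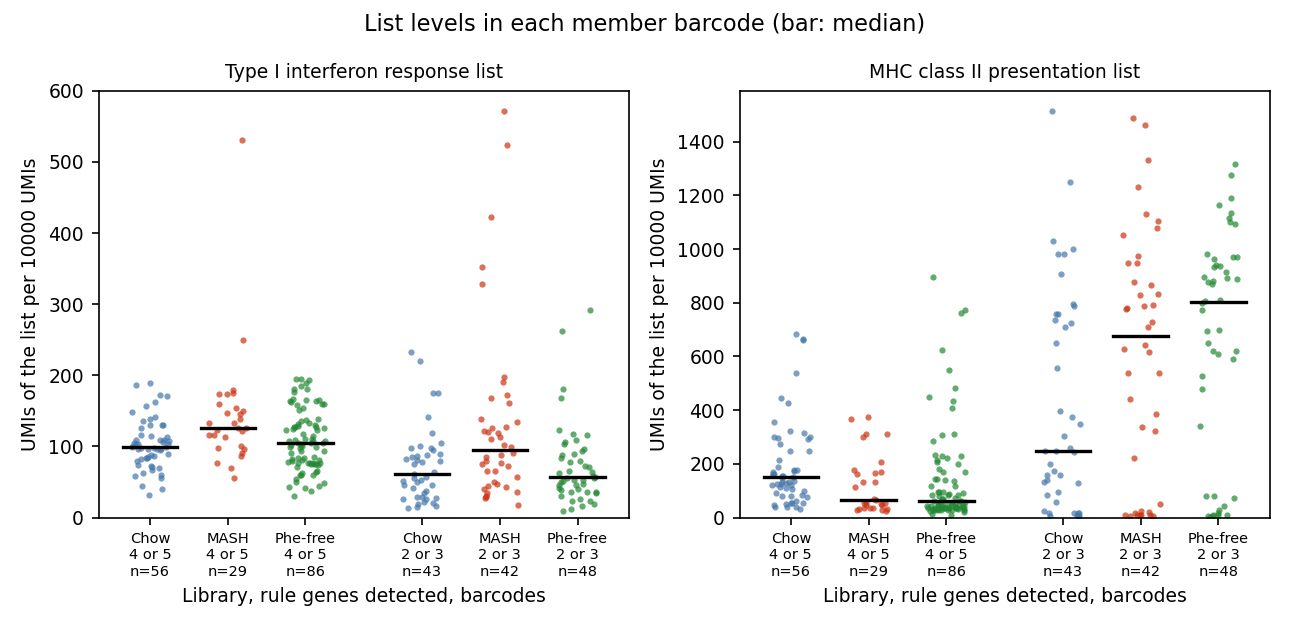
UMIs of a gene list per 10000 UMIs (y axis) in each gated barcode (points) by library and number of rule genes (x axis); bars are medians. In barcodes with 4 or 5 rule genes the interferon medians are 99.4, 127 and 105 with 1 MASH barcode at 531, and the MHC class II medians are 149, 63.6 and 60.7.

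MHC class II genes, which present antigen to T cells, went in opposite directions in the 2 kinds of gated barcode. Over all gated barcodes 12 of 15 genes were higher in MASH than in Chow, 1 past the fold, with a median log2 ratio of 0.50, and 14 of 15 were lower in MASH-Phe-free than in MASH (median -0.50). With 4 or 5 rule genes all 12 measured genes were lower in MASH than in Chow, 6 of them past the fold, with a median of -1.02. Without the deepest barcode of each library 11 of 12 were lower, 1 past the fold, with a median of -0.64. In classical monocytes 11 of 15 were lower and none past the fold.

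H2-Aa read 3181, 1278 and 2226 CPM in the barcodes with 4 or 5 rule genes of Chow, MASH and MASH-Phe-free, and 9185, 12214 and 10911 CPM in those with 2 or 3. Cd74, the invariant chain that accompanies class II molecules, read 11994, 5531 and 7965 CPM in the former and 25773, 35812 and 31738 CPM in the latter. Ciita, the master regulator of class II genes, read 98.2, 15.9 and 85.3 CPM with 4 or 5 rule genes, on 47, 4 and 62 UMIs of which 25 in Chow came from 1 barcode. MASH was thus the lowest library in the 4-to-5-gene barcodes and the highest in the others for H2-Aa and Cd74.

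Per barcode the picture for MASH-Phe-free was different. The median barcode with 4 or 5 rule genes held 149 class II UMIs per 10000 in Chow, 63.6 in MASH and 60.7 in MASH-Phe-free, so that MASH-Phe-free lay as low as MASH. Of its 86 barcodes 3 lay above the highest in Chow. In the 2-to-3-gene barcodes the medians were 248, 677 and 803. Type 2 dendritic markers, summed, read 493, 486 and 444 CPM in the former and 1350, 1981 and 1817 CPM in the latter. Type 1 dendritic markers read 217, 187 and 245 CPM in the former and 782, 1891 and 947 CPM in the latter, and over all gated barcodes 7 of 7 were higher in MASH than in Chow, 6 past the fold. The part of either list in the class II levels was not tested.

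Glucocorticoid targets were higher in Chow. These genes are induced by corticosterone through the glucocorticoid receptor. Of 18 measured genes 13 were lower in MASH than in Chow, 4 past the fold, with a median log2 ratio of -0.43, and with 4 or 5 rule genes 12 of 14 were lower, 4 past the fold (median -0.53). Between MASH and MASH-Phe-free the median was 0.03.

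Fkbp5, a chaperone of the receptor and a strong target of it, read 351, 36.5 and 46.4 CPM in the gated barcodes (MASH over Chow ratio 0.104, interval 0.0685 to 0.152). It was found in 78 of 99 Chow barcodes, 14 of 71 in MASH and 37 of 134 in MASH-Phe-free. With 4 or 5 rule genes it read 424, 51.8 and 53.7 CPM, and was found in 48 of 56, 6 of 29 and 23 of 86, so the difference was spread over cells and not carried by few. Classical monocytes showed it too, at 258, 30.6 and 40.5 CPM, as did T cells, at 142, 61.8 and 61.8 CPM. Tsc22d3, another target, read 530, 263 and 289 CPM in the gated barcodes, and Per1 read 57.9, 23.9 and 34.0 CPM. Per1 is also a gene of the daily clock, and the labels give no hour of collection.

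The genes of the nonclassical list themselves differed little between libraries in the barcodes with 4 or 5 rule genes. For MASH over Chow 13 of 24 were higher and 11 lower, none past the fold, with a median log2 ratio of 0.08, and MASH-Phe-free over MASH had a median of -0.16. Over all gated barcodes the medians were -0.49 and 0.23, with 20 of 24 lower in MASH, where fewer of the barcodes had 4 or 5 rule genes. Among its members Cd36 was lowest in MASH, at 591, 299 and 531 CPM in the 4-to-5-gene barcodes. The rule genes are not in this list and their levels, on which the barcodes were chosen, are a description only: Ace read 813, 417 and 660 CPM and Ear2 556, 558 and 751 CPM over all gated barcodes.

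Other genes that differed in the 171 barcodes were taken by the fold among those with at least 50 UMIs, a rule added after seeing the data. Lima1, an actin-binding protein, read 48.0, 187 and 114 CPM (MASH over Chow ratio 3.90, interval 2.32 to 6.72) and was found in 15, 18 and 39 barcodes. Cdk8, a kinase of the Mediator complex, read 374, 880 and 421 CPM (ratio 2.35, interval 1.92 to 2.88), with 40 of 221 MASH UMIs in 1 barcode. The platelet integrin chain Itgb3 read 56.4, 143 and 89.4 CPM. In classical monocytes the log2 ratios of Lima1 and Cdk8 were 0.22 and 0.14.

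On the lower side Jaml, a junctional adhesion molecule of leukocytes, read 228, 43.8 and 64.7 CPM (ratio 0.192, interval 0.0933 to 0.358). Cyp4f18, which breaks down leukotriene B4, read 205, 47.8 and 175 CPM. Plaur, the urokinase receptor, read 366, 123 and 301 CPM (ratio 0.338, interval 0.223 to 0.497) and was found in 44 of 56, 16 of 29 and 68 of 86 barcodes. In these barcodes Cyp4f18 and Plaur were thus low in MASH alone, on 12 and 31 MASH UMIs, whereas Jaml was low in MASH and MASH-Phe-free. In classical monocytes Cyp4f18 read 58.0, 33.25 and 30.1 CPM and Plaur 360, 302 and 254 CPM, so both were lowest in MASH-Phe-free there. With up to 20 Ly6c2 UMIs allowed, the MASH over Chow log2 ratio went from -1.89 to -0.835 for Cyp4f18. It went from -1.49 to -0.529 for Plaur and from -2.14 to -0.782 for Jaml. Hp, which codes for the haemoglobin carrier haptoglobin, read 198, 346 and 121 CPM, and Dpp4, a surface peptidase, read 171, 251 and 96.3 CPM, both highest in MASH.

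Several of the largest differences over all gated barcodes came from few of them. Higher in MASH were Cd209a (101, 381 and 310 CPM, in 8, 20 and 25 barcodes) and Clec9a (33.9, 131 and 39.2 CPM, in 4, 11 and 15), none with 4 or 5 rule genes. Retnla had 553, 6 and 26 UMIs in Chow, MASH and MASH-Phe-free, in 1, 1 and 2 barcodes. Mpo, a granule enzyme of progenitors and neutrophils, had 266 UMIs in 2 Chow barcodes, 265 of them in 1, none in MASH and 270 UMIs in 6 MASH-Phe-free barcodes. Fn1, which codes for fibronectin, had 84, 0 and 641 UMIs, 396 of the last in 1 barcode. Arg1, which codes for arginase, had 0, 0 and 269 UMIs, 253 of them in 1 barcode.

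Cell-cycle genes were higher in MASH-Phe-free than in MASH for 28 of 30 over the gated barcodes, 10 past the fold, with a median log2 ratio of 0.73. With 4 or 5 rule genes 17 of 19 were higher (median 0.81), and 41.1% of the list's UMIs in MASH-Phe-free came from 1 barcode. Without the 2 barcodes called doublets 2 of 9 were higher and the median was -0.03. With 2 or 3 rule genes 22 of 26 were higher, 11 past the fold (median 0.75). Over all gated barcodes without the highest barcode of each library 23 of 25 were higher, 10 past the fold (median 0.82). Progenitor markers, summed, moved with the list over all gated barcodes, at 563, 226 and 495 CPM in Chow, MASH and MASH-Phe-free, and 2, 0 and 5 of the 2-to-3-gene barcodes carried at least 3 of them; their part in the result was not tested. The barcode with 41.1% of the list's UMIs held 67703 UMIs, 9.31% of all UMIs of the 86 barcodes. The medians per barcode were 23.8, 19.3 and 20.4 list UMIs per 10000 with 4 or 5 rule genes. In classical monocytes 28 of 30 genes were higher in MASH-Phe-free, 11 past the fold (median 0.92).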

How the data were processed

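Per the labels' protocols, 3 libraries were made from mouse spleen with a 10x 5′ kit, 1 per group. The authors deposited raw UMI counts per gene and barcode for 33696 genes, each entry preceded by its gene and cell number. The submitters' processing notes name Cell Ranger 9.0.1, Seurat 5.3.0 and GRCm39 (mm39) without their roles. No cell annotation was used. Barcodes were filtered and gated as the report states, and Scrublet (scanpy 1.11.5, seed 1) called doublets, which were kept.

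UMIs were summed per gate and library and divided by the set's total (CPM). Between libraries, log2 ratios with an offset of 10 CPM, exact conditional Poisson intervals and Clopper-Pearson intervals were computed (Python 3.11.15, scipy 1.17.1, pandas 2.3.3). UMIs of 1 cell are not independent, so intervals cover counting error only. Gated and classical sums were compared with edgeR 4.0.16 in R 4.3.3 (quasi-likelihood, TMM, library as a block since both gates come from the same library, Benjamini-Hochberg adjustment), which was tested on simulated data, and DESeq2 1.42.0 served as an alternative.

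The rule for named genes took, in each direction, the 12 furthest log2 ratios among genes with 50 UMIs or more, whose interval excluded 1 and whose higher set reached 30 CPM and a level of at least 10% of the highest other gate; against classical monocytes it took the 12 furthest called genes alike in all 3 libraries. Not eligible were the gate's own genes, model genes, Xist and Y-linked genes, and genes of ribosomes, mitochondria, haemoglobin and antigen receptors. Up to 6 members of each list were added. Genes outside the rule were chosen after their values were seen. The 19 gene lists, 17 marker lists and the members were chosen with earlier results of these data known. Promoter sequences are RefSeq's, of build GRCm38.p6, and were matched by symbol. Some results are not reported here.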

Additional observations from a re-analysis of the deposited data

How the results depend on the processing

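Fewer than 150 barcodes per library and 1 library per group limit every comparison between groups; animals, libraries and diets cannot be told apart, and the causes of the changes below were not tested.

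The share of gated barcodes in Chow, MASH and MASH-Phe-free was 0.451%, 0.221% and 0.605% with at least 3 rule genes, and 0.945% and 1.06% in Chow and MASH-Phe-free after thinning. Chosen after seeing the data, 4 rule genes gave 0.350%, 0.164% and 0.542%, and without a Ly6c2 limit 1.38%, 0.822% and 1.24%.

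Genes past the fold for MASH over Chow numbered 143 higher and 137 lower. They were 288 and 342 with an offset of 1 CPM, 31 and 21 with 50 CPM, 39 and 32 with at least 100 UMIs, and 38 and 56 with 4 rule genes and up to 20 Ly6c2 UMIs (the wider set), with 94 higher at 4 rule genes. For MASH-Phe-free over MASH the 173 higher and 105 lower became 479 and 266 with 1 CPM, 24 and 20 with 50 CPM, and 45 and 41 with at least 100 UMIs. They were 110 higher with at least 1 of Ace, Treml4 and Ear2, 106 higher and 158 lower with each barcode's own CPM averaged, and 30 lower in the wider set.

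Values that changed direction are log2 ratios. For MASH over Chow, Igfbp4 (-2.90) became 0.13 with 3 rule genes, 0.059 with at least 1 of Ace, Treml4 and Ear2, 0.21 with 4 rule genes and 0.36 in the wider set; over the same settings H2ac4 (-2.89) became 0.93, 0.66, 1.36 and 1.01, and H2ac8 (-2.52) became 1.5, 1.05, 1.69 and 0.96. With 4 rule genes and in the wider set, Ctnnd2 (1.99) became -0.27 and -0.20, the MHC class II median (0.50) -1.02 and -0.24, and the nonclassical median (-0.49) 0.076 and 0.10. The cell-cycle median (-0.37) became 0.68 with at least 1 of Ace, Treml4 and Ear2 and 0.050 with 4 rule genes. In the wider set Cd209a (1.82) became -1.36, Clec9a (1.68) -0.10 and Prtn3 (-3.45) 0.11.

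For MASH-Phe-free over MASH, Igfbp4 (2.50) became -0.18, -0.27, -0.30 and -0.33 over the 4 settings, and Il1r2 (-1.91) 0.42 with 3 rule genes, 0.50 with 4 and 0.32 in the wider set. The MHC class II median (-0.50) became 0.53 with 4 rule genes, the nonclassical median (0.23) -0.16 with 4 and -0.0039 in the wider set, and the glucocorticoid median (0.03) -0.10 with at least 1 of Ace, Treml4 and Ear2. In the wider set Ly6a (-2.22) became 0.61, Ctnnd2 (-1.62) 0.12 and the median of the interferon-gamma GTPases (-0.19) 0.15. The type I interferon medians kept their direction, at 0.54 to 0.93 and -0.57 to -0.90 over single changes, and at 0.27 and -0.25 with 4 rule genes and without the barcode holding most list UMIs.

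Against classical monocytes, the 226 values that could be computed for 24 named genes kept their direction and passed the threshold. The genes were chosen as called and alike in all 3 libraries, so this was largely set by the choice. Another 14 values could not be computed, since the gene fell under the filter. Of these, 11 are higher genes in the comparison of barcodes with 4 or 5 rule genes, which therefore could not check those genes. Without the replicate block (the library pair) edgeR called 884 genes higher and 510 lower, leaving out 1 library gave 745 to 924 and 525 to 648, and 4 rule genes against classical barcodes with at most 1 gave 929 lower. No paired analysis was possible because each group has 1 library, for MASH over Chow and MASH-Phe-free over MASH.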
